A study of Mus musculus with 12 samples.

Results

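Plasmacytoid dendritic cells (pDC) of MC38 tumors were examined as the 458 cells that the deposited cell table places in cluster 18, out of 93126 cells in 27 clusters. The rule used the cluster number and no level of any single gene, but the clusters themselves were built from the transcripts of these cells, so differences between cluster 18 and other clusters are given as descriptions without tests. MC38 is a colorectal carcinoma line of C57BL/6J origin, and its cells were placed under the skin of female mice aged 8 to 12 weeks. The hosts were C57BL/6J mice (B6) and the F1 of C57BL/6J with each of 7 Collaborative Cross strains: CC001/UncJ, CC002/UncJ, CC007/UncJ, CC036/UncJ, CC075/UncJ, CC079/TauUncJ and CC080/TauUncJ. Every F1 host thus carried 1 C57BL/6J genome. At a tumor size of 75 to 110 mm3 each mouse received 200 µg of isotype control antibody (2A3) or of antibody against PD-1 (29F.1A12, aPD1) into the peritoneum, once, and its tumor was taken 48 h later. Tumor pieces were frozen and later dissociated, and the cells were marked with hashing antibodies, sorted to 90% CD45+ and 10% CD45- cells and run as 12 pools of 4 tumors, each pool holding an isotype and an aPD1 tumor of each of 2 hosts. All shares below are therefore shares of a sorted suspension and not of the tumor. The study classed hosts by tumor growth in other animals: CC001, CC002 and CC075 as responders to aPD1, and CC036, CC079 and CC080 as non-responders, a class that the sample labels do not carry. B6 and CC007 had no class here.

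pDC are a dendritic lineage that depends on the E protein Tcf4 and is set apart from conventional dendritic cells (cDC) by low Id2, an inhibitor of E proteins. They sense RNA and DNA of viruses and dying cells in endosomes through Tlr7 and Tlr9, and when activated they can secrete large amounts of type I interferon. In tumors they are often described as quiescent, and surface receptors such as Siglech, Bst2 and Lair1 are known to damp their interferon response.

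The 458 cells came from 43 of the 48 tumors, with 0 to 44 per tumor. Their median depth was 3004.5 unique molecular identifier counts (UMIs) and 1416 genes per cell, against 6575.5 UMIs in cDC1 (cluster 6, 1312 cells), 3652 in migratory dendritic cells (DC, cluster 11, 1524 cells), 5301 in cDC2 (cluster 14, 4981 cells) and 3881 in the macrophages of cluster 2 (18964 cells). No cell barcode occurred in more than 1 of the 458 cells, and 60 of these barcodes also occurred in a cell of another library, as did those of 10176 cells of the series. A level below is in CPM, the UMIs of a gene per 1000000 UMIs of all genes, summed over the cells named.

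The cluster was not made of pDC alone. At least 1 UMI of the pDC genes Siglech, Ccr9, Klk1, Cox6a2 or Cd300c was found in 400 of the 458 cells (87.3%, 95% Wilson interval 84.0 to 90.1), against 2.05% of the cells outside the cluster and 1.12% of the cluster 2 macrophages, which were sequenced more deeply. The other 58 cells included 32 (6.99%, interval 4.99 to 9.70) with no UMI of those 5 genes and at least 2 UMIs of 7 B cell genes. These B cell gene-bearing cells had a median of 2005 UMIs and all lay in pools 7 to 12, with 14 of them among the 30 cells of the CC080 isotype tumor of pool 11 and 5 among the 24 cells of the CC075 isotype tumor of pool 10. The library identifiers form 4 runs of 3 pools each, and these cells numbered 0, 0, 7 and 25 in pools 1 to 3, 4 to 6, 7 to 9 and 10 to 12. No label names a batch, and the split into pools 1 to 6 and 7 to 12 used below joins these runs 2 by 2. Macrophage transcripts were present as well: 52 cells held 5 or more UMIs of the macrophage markers, 39 of them together with a pDC gene UMI, and 15 cells held a UMI of Cd3d, Cd3e or Cd3g. Intervals cover counting error only. Levels are given over all 458 cells and, where it matters, over the 400 cells with a pDC gene UMI. Outside the cluster, 222 cells held 3 or more UMIs of the 5 pDC genes, 182 of them in cluster 20. Cox6a2 had its next highest level in that cluster, at 48.8 CPM. Siglech, Klk1, Ccr9 and Cd300c were at no more than 7.78 CPM in any cluster outside 18. The UMIs in those cells were not split by gene, so they are not counted as pDC.

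Of the 20 genes of at least 50 CPM with the largest ratio of their level in the cluster to the mean of the other clusters, 17 were protein-coding genes led by Klk1 and Siglech, and 13 had an entry in the RefSeq promoter table of GRCm38.p6. Promoters are shown because the cluster shares high Tcf4, and E proteins such as Tcf4 bind E-boxes. The table gives 250 bases before to 50 after a gene start. The windows of 4 genes whose transcripts marked the cluster are printed 5′ to 3′ on the strand of the gene, with the E-box CAGGTG, or its reverse complement CACCTG, in capitals.
Siglech (chr7:55767934-55768233, + strand): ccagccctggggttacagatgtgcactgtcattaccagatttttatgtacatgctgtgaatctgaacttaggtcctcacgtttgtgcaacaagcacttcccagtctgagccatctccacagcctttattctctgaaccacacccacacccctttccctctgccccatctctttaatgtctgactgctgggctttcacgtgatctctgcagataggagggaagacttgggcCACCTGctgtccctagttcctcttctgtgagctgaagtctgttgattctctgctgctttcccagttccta
Klk1 (chr7:44225110-44225409, + strand): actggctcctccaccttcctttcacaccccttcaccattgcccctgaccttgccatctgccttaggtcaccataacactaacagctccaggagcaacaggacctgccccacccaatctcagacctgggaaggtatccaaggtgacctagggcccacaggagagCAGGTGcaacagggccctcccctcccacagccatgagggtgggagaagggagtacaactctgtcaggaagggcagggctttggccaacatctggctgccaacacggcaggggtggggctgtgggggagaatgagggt
Ccr9 (chr9:123766961-123767260, + strand): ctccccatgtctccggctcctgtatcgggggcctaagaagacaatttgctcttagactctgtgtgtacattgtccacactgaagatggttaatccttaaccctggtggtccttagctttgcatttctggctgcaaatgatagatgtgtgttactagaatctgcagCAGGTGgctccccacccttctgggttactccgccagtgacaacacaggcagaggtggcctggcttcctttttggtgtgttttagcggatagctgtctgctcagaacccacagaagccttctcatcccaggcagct
Cd300c (chr11:114960458-114960757, - strand): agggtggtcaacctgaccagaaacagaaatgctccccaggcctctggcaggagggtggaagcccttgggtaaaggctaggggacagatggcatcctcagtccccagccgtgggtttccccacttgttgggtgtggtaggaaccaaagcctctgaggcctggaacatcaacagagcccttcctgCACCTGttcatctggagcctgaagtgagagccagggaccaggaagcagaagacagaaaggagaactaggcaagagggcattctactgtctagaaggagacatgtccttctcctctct
Each of these windows held CAGGTG on one of its strands. The 4 printed windows do not stand for all 13 genes. Of the 13 genes, 11 held CAGGTG or the palindromic E-box CAGCTG, in 11 of the 15 promoters of the 13. Dntt and Gm12253 held neither motif, and Atp2a1 held CAGCTG without CAGGTG. Grm8 held CAGGTG in 1 promoter and neither motif in its others. Among all 32851 promoters of the table, 20.2% held CAGGTG, 16.3% CAGCTG and 32.9% either motif. A match describes the letters in the window and does not show that a factor binds there.

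The pDC markers differed in how many cells held them and in how far they were confined to the cluster, and 11 of the 22 had a UMI in under 50% of its cells. Siglech, a sialic acid-binding receptor that signals through the adaptor Tyrobp, was at 1559 CPM, with a UMI in 83.2% of cells, against at most 2.94 CPM in any other cluster and 0.0211% of the cluster 2 macrophages. Over the 31 tumors with at least 5 pDC, Siglech ranged from 399 to 2485 CPM with a median of 1542. The lowest level was in the CC001 isotype tumor of pool 4, where 3 of 6 cells held 5 or more macrophage marker UMIs. Tcf4, the lineage-defining E protein, was at 2018 CPM with a UMI in 91.3% of cells, and its next highest cluster was cluster 22 at 575 CPM. Bst2, a tetherin that holds virions at the membrane, was at 3256 CPM here against 1100 CPM in the next cluster, and 63.2% of cluster 2 macrophages also held a UMI of it. Ly6d, a surface protein of early lymphoid cells, was at 1033 CPM, second to the 2079 CPM of cluster 25. Lag3, a checkpoint receptor, was not restricted to pDC: it stood at 156 CPM (a UMI in 36.0% of cells), the fifth highest of the 27 clusters, below the 373 CPM of cluster 3, which also had the most Cd3e. Against the other dendritic cells Lag3 was higher, at 4.81 CPM in cDC1, 4.82 in migratory DC and 5.65 in cDC2. All 22 pDC markers on the list were highest in cluster 18 among the 4 dendritic cell clusters, and 20 were highest of all 27 clusters. For the counts of this kind here and below, 7590 of the 26938 genes with a UMI in the series (28.2%) were highest in pDC among the 4 dendritic cell clusters. Of the same 26938 genes, 1560 were highest in pDC of all 27 clusters. The median level of the 22 markers was 447 CPM, against 2.56 CPM in cDC1, 3.09 in migratory DC and 3.93 in cDC2.

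**Figure D1:**
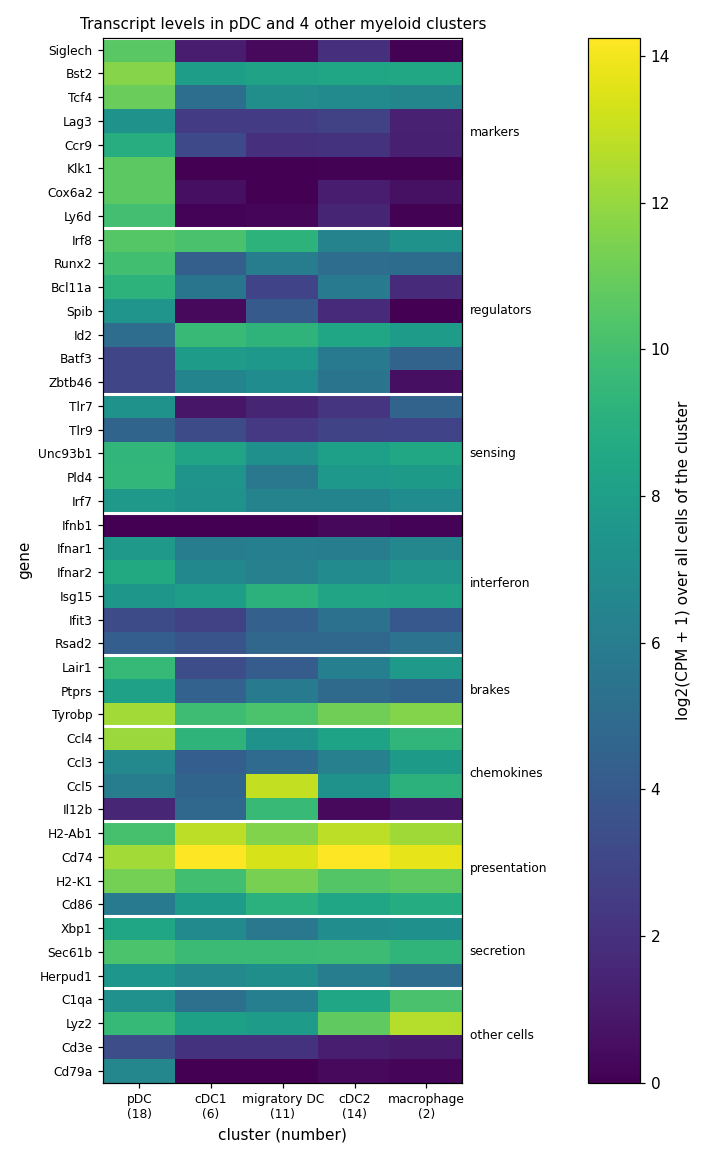
Level of the named genes, as log2(CPM + 1) over all cells of a cluster, in pDC (cluster 18), cDC1 (6), migratory DC (11), cDC2 (14) and cluster 2 macrophages, grouped by role. Each of the 8 markers plotted is highest in the pDC column, with near-dark cells elsewhere for Siglech (1559 CPM against 2.94 CPM in cDC2) but not for Bst2 (3256 CPM against 254 to 367 CPM), whereas the MHC class II genes are brighter in the other columns (H2-Ab1 1115 CPM against 7290 CPM in cDC2).

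The chemokine receptor Ccr9 was at 477 CPM with a UMI in 64.0% of cells, and in the next cluster, cDC1, at 7.78 CPM. Klk1, a tissue kallikrein, was at 1637 CPM in the cluster and at most 1.78 CPM in any other. Klk1 had the largest SD relative to its mean of the 22 pDC markers. Over the 31 tumors it ranged from 143 CPM in the CC001 isotype tumor of pool 4 to 8453 CPM in the CC002 aPD1 tumor of pool 12, with a median of 1055. In that CC001 tumor, 3 of the 6 cells held 5 or more macrophage marker UMIs. The 2 highest values, 8453 and 7248 CPM, were both from CC002 hosts given aPD1, with 7 and 6 pDC, and the CC002 isotype tumor of pool 5 was at 2082 CPM. The other 6 hosts with more than 1 such tumor had means between 767 ± 244 CPM (SD, n = 4, CC036) and 1571 ± 939 CPM (n = 4, CC075). Cox6a2, a muscle-type subunit of cytochrome c oxidase, was at 1640 CPM here and at 48.8 CPM in the next cluster. Other genes among the 20 were Grm8, a metabotropic glutamate receptor, at 699 CPM, Paqr5 at 185 CPM, Sh3bgr at 141 CPM and the olfactory receptor gene Olfr164 at 127 CPM. Each of these 4 was at no more than 3.56 CPM in any other cluster. The immunoglobulin segment Igkv6-25, also among the 20, had all of its 1489 UMIs in 2 cells and none in the 400 cells with a pDC gene UMI.

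Of the 14 lineage regulators on the list, 8 were highest in pDC among the 4 dendritic cell clusters. Irf8, required by both cDC1 and pDC, was at 1437 CPM and the next highest cluster was cDC1 at 1165 CPM. Over tumors these were 1367 ± 409 CPM (SD, n = 31) in pDC and 1186 ± 214 CPM in cDC1, so the spreads overlap. Runx2, needed for pDC to leave the bone marrow, was at 974 CPM, Bcl11a, a zinc finger factor upstream of pDC development, at 602 CPM, and the Ets factor Spib at 174 CPM. The same 3 genes in cDC2 were at 33.6, 58.3 and 2.41 CPM. Id2 was at 33.8 CPM, rank 26 of the 27 clusters, against 781 CPM in cDC1, 609 in migratory DC and 351 in cDC2. Batf3, a cDC1 factor, was at 6.88 CPM against 236 in cDC1, and Zbtb46, a factor of the cDC lineage, was at 6.88 CPM against 83.9 in cDC1. Cbfa2t3, a corepressor that promotes pDC, was at 103 CPM against 220 in cDC1, 234 in migratory DC and 154 in cDC2, so it was lowest in pDC. Zeb2, which favors pDC over cDC1, was at 613 CPM, the highest of the 4 but rank 10 of the 27 clusters.

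Some lymphoid transcripts were as abundant in the cells with a pDC gene UMI as in the whole cluster, and others were largely absent from them. Ighm, the µ heavy chain gene, was at 525 CPM over the cluster and still at 495 CPM in the 400 cells with a pDC gene UMI. It had a UMI in 70.3% of the cells against 6.26% of cluster 2 macrophages. Mzb1, a chaperone of antibody secretion, was at 277 CPM and 266 CPM in the same 2 sets of cells, and Dntt, the terminal transferase of antigen receptor rearrangement, at 128 and 144 CPM. Igkc, by contrast, was at 2018 CPM over the cluster and 230 CPM in those 400 cells, and Cd79a, a component of the B cell receptor, at 97.6 and 0 CPM. Cd4 was at 139 CPM with a UMI in 26.9% of cells, and Cd8a at 102 CPM with a UMI in 17.0%. Both kept their level in the 400 cells, at 154 and 111 CPM, while Cd3e, the T cell receptor component, was at 9.39 CPM and 2.81 CPM. In cluster 2 macrophages 0.0949% of cells held a Cd4 UMI and 0.148% a Cd8a UMI.

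Of 21 nucleic acid sensing genes, 11 were highest in pDC among the 4 dendritic cell clusters, with a median of 37.5 CPM against 26.5 in cDC1, 22.5 in migratory DC and 28.7 in cDC2. Tlr7, the sensor of single-stranded RNA, was at 161 CPM with a UMI in 38.6% of cells, the highest of the 27 clusters, and was at 0.819 CPM in cDC1 and 3.64 in cDC2. Unc93b1, which carries Tlr7 and Tlr9 to endosomes, was at 673 CPM (324 in cDC1). Pld4, an endosomal nuclease that digests their ligands, was at 698 CPM (168 in cDC1), and Slc15a4, a transporter needed for signaling by Tlr7 and Tlr9, at 88.2 CPM. Each was highest of the 27 clusters. Tlr9, the sensor of CpG DNA, was at 23.2 CPM against 23.5 in the highest cluster, so its 37 UMIs do not separate pDC from cluster 21, and the mean of the other clusters was 4.29 CPM. Irf7, the factor that drives interferon alpha genes, was at 209 CPM against 152 in cDC1 and 672 in cluster 21. Other members of the list were lower than in cDC1. Myd88, the adaptor of Tlr7 and Tlr9, was at 50.1 CPM against 70.1, and Irf5, a factor downstream of it, at 85.1 against 273. Tlr3, a sensor of double-stranded RNA, had 4 UMIs in the cluster and stood at 159 CPM in cDC1, and Cgas, the sensor of cytosolic DNA, at 1.88 CPM against 21.9.

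Of 20 type I and type III interferon genes searched, 13 were in the table and 12 of these, Ifnb1 included, had no UMI in the 458 cells. The exception was Ifnk, with 2 UMIs. A count of 0 allows a level of up to 1.88 CPM over the cluster and a UMI in up to 0.655% of its cells. Ifnb1 had 103 UMIs in all cells of the series. The receptor for type I interferon was abundant, with Ifnar1 at 210 CPM and Ifnar2 at 407 CPM, both highest of the 27 clusters. Ifngr1, a chain of the interferon gamma receptor, was at 56.3 CPM, the lowest of the 27. Of the 31 measured targets of type I interferon, 6 (19.4%, against 28.2% of all genes) were highest in pDC among the 4 dendritic cell clusters. None was highest of the 27 clusters, beside 1560 of 26938 over all genes, so a count of 0 among 31 is little apart from that share. The median of the 31 was 28.8 CPM against 28.2 in cDC1, 33.3 in migratory DC and 43.6 in cDC2. Isg15 was at 182 CPM against 254, 578 and 322 CPM in the same order, and Ifit3 was at 8.76 CPM against 39.0 CPM in cDC2.

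Of 17 genes of brakes and checkpoints, 8 were highest in pDC among the 4 dendritic cell clusters. Lair1, an inhibitory collagen receptor, was at 755 CPM with a UMI in 78.8% of cells, and at 9.31 CPM in cDC1 and 207 CPM in cluster 2 macrophages. Ptprs, a receptor phosphatase that restrains pDC activation, was at 289 CPM, and Klra17, an Ly49 family receptor, at 255 CPM. All 3 were highest of the 27 clusters. The adaptor Tyrobp was at 4948 CPM, second to the 6167 CPM of cluster 16. Cd274, the PD-1 ligand, was not one of the 8, at 45.1 CPM against 734 CPM in migratory DC, and Pdcd1, the target of the antibody, had 4 UMIs in the cluster.

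Among chemokines and cytokines, Ccl4, an inflammatory CC chemokine, was at 4448 CPM with a UMI in 72.9% of pDC, against 27.4% of cluster 2 macrophages. Per tumor Ccl4 ranged from 251 to 14513 CPM with a median of 4242, and it averaged 4720 ± 2946 CPM (SD, n = 31), against 564 ± 400 CPM in cDC1. Only cluster 13 was higher, at 28674 CPM. The related Ccl3 was at 105 CPM, rank 16, and Ccl5 at 62.0 CPM, rank 23. Il12a was at 17.5 CPM from 28 UMIs and the highest of the 27 clusters, while Il12b had 3 UMIs, Tnf 26 and Il6 none. For homing, Selplg, the ligand of P-selectin, was at 780 CPM, the highest of all clusters. Cxcr3 was at 31.9 CPM. Ccr7, the receptor for lymph node entry, was at 18.8 CPM over the cluster and 4.91 CPM in the 400 cells with a pDC gene UMI, against 2506 CPM in migratory DC.

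The 17 antigen presentation genes had a median of 312 CPM in pDC, against 524 in cDC1, 419 in migratory DC and 472 in cDC2, and none was highest in pDC among the 4 clusters. H2-Ab1, an MHC class II chain, was at 1115 CPM against 7208 in cDC1 and 7290 in cDC2, and Cd74, the invariant chain, at 5000 CPM against 18918 and 19507. Cd86, a costimulatory ligand, was at 58.8 CPM over the cluster and 27.4 CPM in the 400 cells, against 549 CPM in migratory DC. Not all were lower in pDC, since the class I gene H2-K1 was at 2503 CPM, above cDC1 (981) and cDC2 (1372) and below migratory DC (2592). Genes of the secretory pathway, which is expanded in pDC, went the other way: 10 of 12 were highest in pDC among the 4 clusters. Xbp1, the factor of the unfolded protein response, was at 329 CPM against 110 in cDC1, and Hsp90b1, an endoplasmic reticulum chaperone, at 1094 against 605. Of the growth factor receptors, Flt3 was at 199 CPM, close to the 208 CPM of cDC1, Csf2rb2, a beta chain that pairs with the Il3 receptor, at 368 against 44.2 CPM, and Il7r at 446 against 3.48 CPM. Cell cycle transcripts were low, with Mki67 at 12.5 CPM against 129 CPM in cDC1, and 24 UMIs of Top2a in the cluster.

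Markers of other cells gave the following levels. The 9 macrophage markers summed to 1952 CPM over the cluster and 1528 CPM in the 400 cells, with Lyz2 at 738 CPM (a UMI in 21.8% of pDC and 96.5% of macrophages) and C1qa at 145 CPM. The 9 B cell markers summed to 2881 CPM and to 760 CPM in the 400 cells. The 9 T and NK cell markers summed to 287 CPM, mostly Cd4 and Cd8a. Fibroblast markers had 3 UMIs in all, and the median level of the 7 transitional DC markers, among them Axl (24.4 CPM) and Cx3cr1 (33.8 CPM), was 33.8 CPM. Their part in the comparisons below was not tested, except by leaving cells out as stated.

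The first comparison asked whether the abundance of pDC differed between hosts or with treatment. The share of pDC among all cells of a tumor averaged 0.477 ± 0.430% (SD, n = 48), with a median of 0.317% and a range of 0 to 1.98%. None were found in 5 tumors: the CC079 aPD1 tumor of pool 2, the B6 aPD1 tumor of pool 7, the CC007 isotype tumor of pool 7, the CC075 isotype tumor of pool 9 and the CC007 aPD1 tumor of pool 6. In the first 4 a count of 0 allows a share of up to 0.130 to 0.205% if 3 cells are taken as the limit, and in the last, with 53 cells, up to 5.66%. The upper ends of the exact two-sided 95% intervals were 0.160 to 0.251% and 6.72%. By host the mean over both treatments was 0.733 ± 0.355% in CC080 (n = 6), 0.686 ± 0.493% in CC075 (n = 6), 0.558 ± 0.608% in CC001 (n = 8), 0.496 ± 0.256% in CC036 (n = 6), 0.438 ± 0.446% in B6 (n = 6), 0.360 ± 0.427% in CC002 (n = 6), 0.222 ± 0.178% in CC079 (n = 6) and 0.202 ± 0.344% in CC007 (n = 4). Each mean lay within 1 SD of its neighbor in this order, which sorting makes likely. The ends of the order, CC080 and CC007, lay farther apart than the SD of either. A permutation test over the 24 pairs of tumors gave a Kruskal-Wallis statistic of 9.92 and p = 0.175 for the 8 hosts (adjusted p = 0.670 over the 9 tests of shares). Each pool held 2 hosts and the pairs were permuted without regard to pool, so host and pool are partly mixed. CC007 was in pools 6 and 7 alone. In pool 7 its isotype and aPD1 tumors had 0 and 1 pDC, and those of B6 had 1 and 0.

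**Figure D2:**
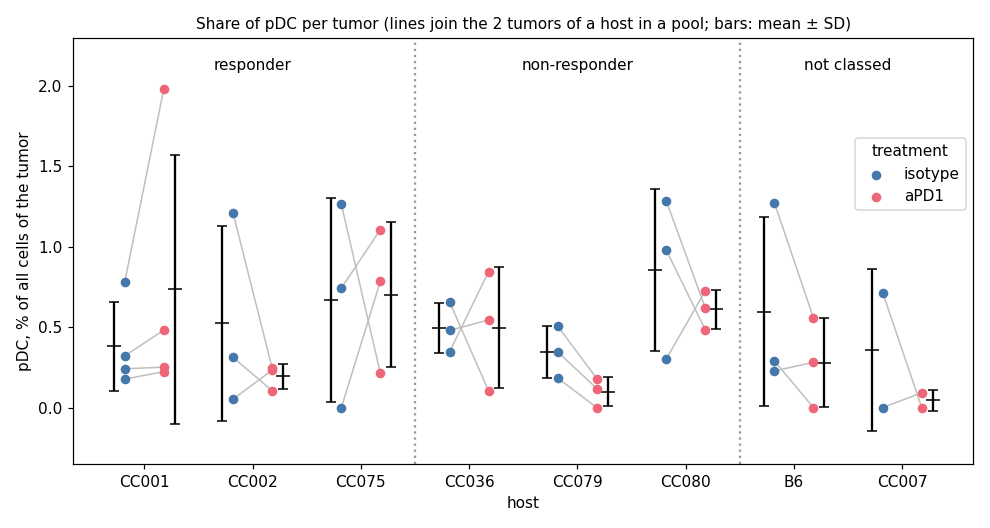
Share of pDC (% of all cells of the tumor, y axis) in each of the 48 tumors by host (x axis) and treatment, with responder hosts left, non-responder hosts in the middle and unclassed hosts right. Points are tumors, lines join the isotype and aPD1 tumors of a host in a pool, and bars are mean ± SD. All 4 CC001 lines go up and all 3 CC079 lines go down, and each other host has lines both ways. The highest point is the CC001 aPD1 tumor of pool 12 at 1.98%.

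Responders and non-responders overlapped. Under isotype the share was 0.510 ± 0.461% in responder hosts (SD, n = 10, range 0 to 1.26%) and 0.565 ± 0.358% in non-responder hosts (n = 9, range 0.182 to 1.29%). The exact two-sided permutation test of ranks gave p = 0.447 (adjusted p = 0.670), with a 95% interval of the shift from -0.415 to 0.395 percentage points. Under aPD1 the shares were 0.563 ± 0.588% (n = 10) and 0.403 ± 0.308% (n = 9), with exact permutation p = 0.604 (adjusted p = 0.703) and an interval from -0.330 to 0.382. In the cells with a pDC gene UMI the isotype means were 0.446 ± 0.407% and 0.435 ± 0.251%, so the sign of the difference turned when all 58 cells without a pDC gene UMI were left out. Without the 32 B cell gene-bearing cells alone the difference was -0.00398 percentage points. Within the 8 pools that held a host of each class, the mean difference between responder and non-responder tumors was -0.187 percentage points under isotype (exact permutation p = 0.195), against -0.0546 over all tumors, and 0.0405 under aPD1 (exact permutation p = 0.641). Taken over strains rather than tumors, 3 against 3 hosts cannot give an exact p below 0.10.

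The treatment was compared within pools. Of 24 pairs, 12 had the higher share under aPD1, and the mean change was -0.104 percentage points (permutation p = 0.346, adjusted p = 0.670, interval -0.331 to 0.107). In responder hosts 7 of 10 pairs were higher under aPD1, with a mean change of 0.0528 percentage points (exact permutation p = 0.625, interval -0.444 to 0.496). Without the CC001 aPD1 tumor of pool 12 that mean was -0.0745. In non-responder hosts 3 of 9 pairs were higher, with a mean change of -0.162 percentage points (exact permutation p = 0.301, interval -0.495 to 0.136). The difference between the classes in the treatment effect was 0.215 percentage points (exact permutation p = 0.400, interval -0.383 to 0.714). In every pool the antibody and the hashing tag changed together, so a difference between tags and one between treatments cannot be told apart.

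Within the dendritic cells (clusters 6, 11, 14 and 18, 8275 cells), pDC made up 6.38 ± 5.12% in responder and 5.04 ± 2.36% in non-responder hosts under isotype (exact permutation p = 0.968, interval of the shift -3.03 to 6.60 percentage points), and 6.56 ± 4.87% against 4.02 ± 2.82% under aPD1 (exact permutation p = 0.278, interval -1.50 to 6.36). Across the 48 tumors the share of pDC and the share of the other 3 dendritic cell clusters, which have the same denominator, went together with Pearson's r = 0.304 (permutation p = 0.0369) and Spearman's rho = 0.425 (permutation p = 0.00297). It was the 1 relation computed. The permutations here treat the 48 tumors as independent, although tumors share hosts and pools, so these p-values may be too small. Without the 2 tumors farthest from the median share of the other dendritic cells r was 0.454 (permutation p = 0.00128). Within pools 1 to 6, r was 0.324 (permutation p = 0.121) and rho 0.434 (permutation p = 0.0359), and within pools 7 to 12 r was 0.437 (permutation p = 0.0320) and rho 0.445 (permutation p = 0.0301).

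The second comparison asked whether pDC of responder and non-responder hosts differed in their transcripts. Counts were summed over the pDC of each tumor with at least 5, which left 13 responder and 13 non-responder tumors with 342 pDC and 12584 to 157208 UMIs per tumor. CC079 entered with isotype tumors alone. Of 779 genes tested, 3 passed an adjusted p of 0.05 in edgeR (0.385% of the genes tested), 1 higher and 2 lower in responders, and 52 had an unadjusted p under 0.05. Reads of all hosts were aligned to the same reference, and whether sequence differences between hosts changed the counts was not tested.

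Gm10260, a retrogene on chromosome 13 (97760072 to 97760632, minus strand), had the largest difference. It stood between 0 and 113 CPM in the pDC of the 13 responder tumors, with a median of 0, and between 473 and 1158 CPM in the 13 non-responder tumors, with a median of 722, so the groups did not overlap. The log2 fold change was -4.79 ± 0.40 (SE, adjusted p = 6.5e-10). The pattern followed the host and was not particular to pDC. In all other cells of the same hosts Gm10260 averaged 8.42 CPM in CC001, 6.18 in CC002 and 5.57 in CC075, against 671 in CC036, 812 in CC079 and 773 in CC080. The unclassed hosts fell on both sides, B6 at 3.61 CPM and CC007 at 702 CPM. A retrogene is a processed copy of another gene, and its reads may be shared with near-identical copies, so its level is uncertain. Rps18, a ribosomal protein gene given below, went the other way in all other cells, at 2099 CPM in responders and 1414 in non-responders. Gm10260 was there at 6.90 and 752 CPM. Whether Gm10260 and Rps18 share reads was not tested, so their differences may not be separate.

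Ndufc2, a subunit of respiratory complex I on chromosome 7, was higher in responders, at 424 ± 182 CPM (SD, n = 13, range 151 to 715) against 210 ± 79.1 CPM (range 97.6 to 325), with overlapping groups. The log2 fold change was 1.10 ± 0.23 (SE, adjusted p = 0.0146). The difference came from 2 of the 3 responder hosts: CC001 pDC were at 540 ± 173 CPM and CC075 pDC at 410 ± 51.2, whereas CC002 pDC were at 210 ± 98.2, inside the range of host means of the non-responders (181 to 267). In all other cells the host means of Ndufc2 lay between 237 and 319 CPM, and the same 2 hosts were highest there, CC075 at 319 ± 34.0 and CC001 at 298 ± 24.6 CPM, against 256 to 276 CPM in the other 4 classed hosts. Gm21762, a protein-coding gene model on chromosome 13 that was near 0 outside pDC, was at 243 ± 140 CPM in responders (range 79.5 to 565) and 469 ± 126 CPM in non-responders (range 257 to 650), a log2 fold change of -0.96 ± 0.22 (SE, adjusted p = 0.0371). With the pool as a block, Gm10260 alone passed, and Ndufc2 and Gm21762 had adjusted p = 0.284 and 0.107. Ndufc2 and Gm21762 also missed the threshold in most of the fits that left out a strain, as given below, whereas Gm10260 passed in each. In the cells with a pDC gene UMI 5 genes passed, and without 2 CC080 tumors that share an animal identifier 6 passed, Rps18 among them (adjusted p = 0.0396).

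**Figure D3:**
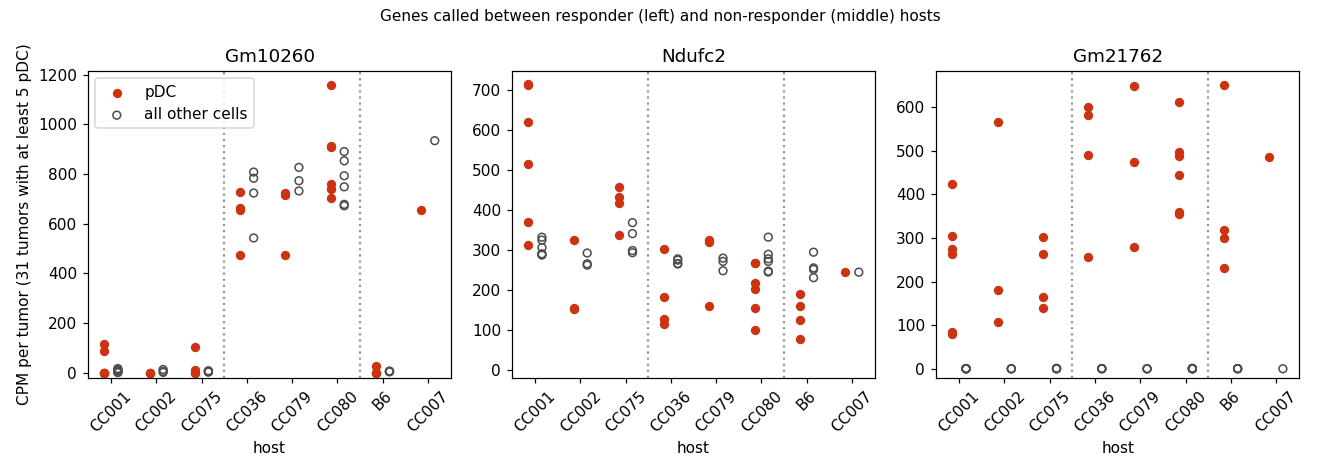
Level (CPM, y axis) of Gm10260, Ndufc2 and Gm21762 by host (x axis) in the pDC (filled) and in all other cells (open) of each of the 31 tumors with at least 5 pDC, responder hosts left, non-responder hosts in the middle, unclassed hosts right. Gm10260 is either at most 113 CPM or at least 473 CPM in the pDC of a tumor of a classed host, as it is split by host in the other cells, Ndufc2 is highest in the pDC of CC001 and CC075, and Gm21762 is found in pDC with a mean of 243 CPM in responders and 469 CPM in non-responders.

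The next 2 genes by p did not pass. Rps18, a ribosomal protein gene, had a log2 fold change of 0.55 ± 0.15 (SE, adjusted p = 0.238; DESeq2 0.0200), with 1607 ± 355 CPM in responders and 1161 ± 404 in non-responders, and all other cells were at 2099 and 1414 CPM. H2-Eb1, an MHC class II beta chain, had 1.51 ± 0.43 (adjusted p = 0.238), at 1343 ± 1148 CPM against 580 ± 470 in pDC and 3619 against 1990 CPM in all other cells. In CC002 pDC it averaged 2558 ± 1630 CPM (n = 3). By host, H2-Eb1 in all other cells was at 3702 CPM in CC001, 3911 in CC002 and 3218 in CC075. It was at 2431 in CC036, 1868 in CC079 and 1670 in CC080, so its difference was not particular to pDC. H2-Ab1, another class II gene, was at 3134 CPM in the other cells of CC080, against 3460 over responders. In CC080 pDC, H2-Eb1 was at 508 ± 426 CPM and H2-Ab1 at 1026 ± 840 CPM (n = 6). Macrophage markers gave the following values beside these genes: all 4 tested had positive fold changes, median 1.30, with C1qa at 1.62 and Lyz2 at 1.22, none passing, and their part in H2-Eb1 was not tested beyond leaving out cells with macrophage or T cell marker UMIs, where its log2 fold change was 1.27 (adjusted p = 0.453). By list, none of the tested pDC markers (17 tested, median log2 fold change -0.09), nucleic acid sensing genes (4, -0.06), type I interferon targets (4, -0.06), brakes (8, 0.00), antigen presentation genes (9, 0.22) or secretory pathway genes (8, 0.05) passed, beside a median of 0.01 over all 779 genes. Among the markers the values were -0.21 ± 0.17 for Siglech, -0.27 ± 0.20 for Tcf4, -0.01 ± 0.12 for Bst2 and -0.55 ± 0.19 for Ccr9 (SE, smallest adjusted p = 0.505).

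The third comparison set aPD1 against isotype with the host as a covariate, in 15 and 16 tumors with 427 pDC. The 3 CC079 tumors and the 1 CC007 tumor among them were all isotype, so the contrast rests on 15 against 12 tumors. Of 524 genes tested, 0 passed in edgeR (0%), 30 had an unadjusted p under 0.05, and DESeq2 called 2. These were Grn, which encodes progranulin, and Rps3, a ribosomal protein gene. Grn was at 1830 ± 404 CPM under aPD1 (SD, n = 15) and 1241 ± 360 CPM under isotype (n = 16; 1203 ± 334 in the 12 of hosts in both arms), with overlapping ranges, a log2 fold change of 0.55 ± 0.14 (SE, adjusted p = 0.264; DESeq2 0.0265). Rps3 was at 1468 ± 201 and 1743 ± 333 CPM, with -0.30 ± 0.09 (adjusted p = 0.425; DESeq2 0.0265). Next by p were Selplg (0.52 ± 0.16, adjusted p = 0.425), the brake Ptprs (0.54 ± 0.18, adjusted p = 0.681) and Tyrobp (0.30 ± 0.11, adjusted p = 0.833). Of the 12 pDC markers tested, 9 had positive fold changes, with a median of 0.21, beside 283 of all 524 genes with a median of 0.02, and none passed. Bst2 had 0.29 ± 0.14, Siglech 0.29 ± 0.17 and Tcf4 0.21 ± 0.19. Of the 9 antigen presentation genes tested none passed, with a median of -0.19, H2-Aa at -0.77 ± 0.30 and H2-Ab1 at -0.77 ± 0.37. Over all 15 and 16 tumors, 7 of the 9 macrophage markers had a lower mean under aPD1, such as C1qa (87.1 ± 142 against 285 ± 533 CPM). The other 2 had a higher one, Cd68 (213 ± 86.8 against 197 ± 83.3) and Adgre1 (15.5 ± 48.5 against 13.6 ± 26.9). In hosts present in both arms (15 against 12 tumors), 8 of the 9 were lower under aPD1. Adgre1 was then at 15.5 against 18.1 CPM and C1qa at 87.1 against 340 CPM. Cd68 alone stayed higher, at 213 against 212 CPM. The sum of the 9 markers ranged from 120 to 15038 CPM under isotype (median 1567) and from 154 to 5962 CPM under aPD1 (median 866). Its isotype range and median were the same in the 12 tumors. Lyz2, the 1 such gene with enough counts to be tested, had -0.48 ± 0.75, and the part of these transcripts in the class II values was not tested. Both type I interferon targets tested missed the threshold (median -0.06), and no interferon gene had enough counts to be tested.

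The treatment effect itself was compared between classes with an interaction term over 779 genes. This fit had terms for class and treatment and none for strain or pool. CC079 entered with isotype tumors alone, so host and treatment are partly mixed in the non-responder tumors. None of the genes passed in edgeR (0%) or DESeq2, and 21 had an unadjusted p under 0.05. The 5 smallest p belonged to Ptpn1 (1.27 ± 0.46), Akr1a1 (-0.92 ± 0.36), Sdc4 (-1.46 ± 0.57), Eif3a (-1.06 ± 0.42) and Abhd17b (1.22 ± 0.49), as log2 differences with SE and an adjusted p of 1.00 each.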

How the data were processed

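Single-cell RNA was sequenced by 10x 5′ chemistry (version 2) from 12 pools of 4 hashed tumors. According to the labels and the study's methods, the authors aligned reads with Cell Ranger to GRCm38 (mm10), assigned hashes, filtered cells on their mitochondrial and ribosomal content (a kept cell had at most 14.99% mitochondrial UMIs), and clustered cells in Seurat 5.0.1. The same reference was used for all hosts, although their genomes differed. For bulk RNA the paper instead used transcriptomes altered at sites where the founder strains of the Collaborative Cross differ from the reference. Whether such sites changed the counts of a gene here was not tested. This limit applies to every difference in transcripts between hosts or classes. Doublet handling beyond hashing is not given in the sources used here, and no doublet caller was run here. They deposited whole-number UMI counts per gene and cell, and a cell table with pool, strain, treatment and cluster. A tumor was 1 strain and treatment in 1 pool. A single animal identifier is on 2 CC080 tumors (pool 3, isotype, and pool 4, aPD1), and both were kept as independent tumors in every n. Members and gene lists were chosen with earlier results of these data known.

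Shares were compared by exact permutation of ranks, or by sign flips for isotype and aPD1 tumors of a host in the same pool. The pairing comes from the labels, since both tumors of a pair shared a library. The 9 share tests were Benjamini-Hochberg adjusted, and intervals invert the rank test. For transcripts, deposited counts were summed per tumor with at least 5 pDC, filtered by filterByExpr, scaled by TMM and tested with edgeR 4.0.16 quasi-likelihood in R 4.3.3 (limma 3.58.1), with treatment as covariate between classes and strain as covariate between treatments, at an adjusted p of 0.05. The SE beside an edgeR log2 fold change was the absolute fold change divided by the square root of the F statistic. It therefore restates the test and is not a separate estimate. DESeq2 1.42.0, other scalings, filters, cell sets, a pool block and leaving out strains were alternatives. Cells, not animals, were summed, and p-values between classes treat tumors of 1 strain as independent. The script was tested on simulated data. Python 3.11.15, numpy 2.4.6, pandas 2.3.3, scipy 1.17.1 and matplotlib 3.10.9 were used. Results for some items are not reported here. Named genes were those of the lists, the called genes (or the 5 of smallest p), and the 20 genes of at least 50 CPM with the largest ratio to the mean of the other clusters. Genes from 1 locus family, such as Klk1 and Klk1b27, may share reads.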

Additional observations from a re-analysis of the deposited data

Results flagged for a closer look

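Of 35 groups of 4 to 10 tumors checked, 6 had 1 tumor whose gap to its neighbor was large beside the range of the group. The cut-offs are passed by about 1 in 20 groups of normal data. Shares and CPM are bounded at 0, and a tumor can be in more than 1 group. Whether 6 is more than chance gives was therefore not tested. The CC001 aPD1 tumor of pool 12 stood apart at a pDC share of 1.98%, both among the 10 responder tumors given aPD1 and among the 8 tumors of CC001. It had 44 pDC of 2221 cells (95% exact interval 1.44 to 2.65%), and 42 of them held a pDC gene UMI. In CC002 the isotype tumor of pool 12 stood apart at 1.21%, from 3 pDC in 248 cells (interval 0.250 to 3.49%). In CC007 the isotype tumor of pool 6 stood apart at 0.714% with 22 pDC, beside 0, 0 and 0.0925% in the other 3 tumors. Of those 3, the aPD1 tumor of pool 6 had 53 cells, and the other 2 were of pool 7. The B6 tumors of pool 6 were at 1.27% under isotype and 0.558% under aPD1.

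Gm10260 was at 24.6 CPM in the pDC of the B6 isotype tumor of pool 6, from 2 UMIs, and at 0 in the other 3 B6 tumors. Beside those, any level above 0 would have stood apart. It was at 105 CPM in the CC075 aPD1 tumor of pool 9, from 9 UMIs, beside 0 to 9.45 CPM in the other 3 CC075 tumors.

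The change in pDC share from isotype to aPD1 went opposite ways in 2 hosts: it was higher in 4 of 4 pairs in CC001 (0.354 ± 0.567 percentage points, SD) and lower in 3 of 3 pairs in CC079 (-0.245 ± 0.0730), a gap of 0.598 percentage points. The 4 CC001 changes were 0.0463, 0.00982, 0.160 and 1.20, the last in pool 12, and without that pair their mean was 0.0722 and the gap 0.317 percentage points. The other 3 pairs rest on 2 to 10 pDC per tumor. This difference was not tested.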

How the results depend on the processing

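No share comparison passed under any alternative run (smallest adjusted p 0.318). The isotype class difference in pDC share (-0.0546 percentage points) turned to 0.00765 without cells bearing T/NK or macrophage marker UMIs, 0.0112 in cells with a pDC gene UMI and 0.107 within pools 7 to 12, and leaving out a strain gave -0.165 to 0.0910 (positive without CC001, 0.0318, and without CC080, 0.0910). The aPD1 class difference was -0.0426 within pools 1 to 6 and 0.00898 to 0.318 without a strain. The responder treatment change turned to -0.0585 without cells bearing those T/NK or macrophage UMIs, -0.0745 without the CC001 aPD1 tumor of pool 12, and -0.148 to 0.216 without a strain (-0.148 without CC001). The difference as a share of dendritic cells under isotype was -0.930 percentage points within pools 1 to 6. The cause was not tested.

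The 3 class calls became 56 with no filter on counts, 6 in tumors of at least 10 pDC, 5 without cells bearing T/NK or macrophage marker UMIs, 5 in cells with a pDC gene UMI, 6 without the 2 CC080 tumors that share an animal identifier (the 3 calls among them), 1 with the pool as replicate block and 1 to 4 without a strain (1 without CC075). Gm10260 passed in every one of these leave-outs; Ndufc2 missed the threshold without CC001, CC036, CC075 or CC080, and Gm21762 without any of these or CC079. The 0 treatment calls became 2 with DESeq2 and 34 with no filter, and the 0 interaction calls 8 with no filter. The pool block changed no other call; for the share tests it gave a class difference of -0.187 under isotype (exact permutation p = 0.195). Bst2 between classes turned sign (0.00542 with DESeq2, 0.00810 with its size factors, 0.0323 at 10 pDC or more, 0.124 at 1 or more, 0.0277 without B cell gene-bearing cells, 0.0181 without the 2 CC080 tumors, -0.148 to 0.0909 without a strain, with 0.0684 without CC002 and 0.0301 without CC075), as did Tcf4 under treatment (-0.00482 at 10 pDC or more, -0.0329 at 1 or more). Without the 2 CC080 tumors no share result changed direction, and treatment and interaction calls stayed at 0. Alternatives on B cell or pDC gene UMIs, without the CC001 tumor or pair, and without the 2 CC080 tumors in the tests of genes were chosen after seeing the data. The unpaired fit of the class difference in treatment effect was not run.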

Other observations

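Cd4 had too few counts to be tested between treatments. Its level, looked up after the values were seen, was 198 ± 79.2 CPM in the pDC of aPD1 tumors (SD, n = 15, range 97.6 to 360) and 84.9 ± 78.0 CPM in those of isotype tumors (n = 16, range 0 to 277), with overlapping ranges and no test. Cd8a went the other way, at 75.8 ± 64.9 CPM under aPD1 and 132 ± 139 CPM under isotype, also without a test. The 16 isotype tumors include those of CC079 and CC007, hosts with no aPD1 tumor of at least 5 pDC. With 0 to 44 pDC per tumor, 1 cell weighs heavily: the Igkc level of a tumor reached 34320 CPM.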
